A study of Xenopus laevis with 60 samples.

Results

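The genes described here are the endodermal sox17 and GATA genes of Xenopus laevis, taken as every gene whose symbol begins with sox17 or is gata4, gata5 or gata6. The rule found 10 genes of the 49580 with an exon level: sox17a.L, sox17a.S, sox17b.1.L, sox17b.1.S, gata4.L, gata4.S, gata5.L, gata5.S, gata6.L and gata6.S. X. laevis is an allotetraploid frog, and .L and .S name the copies of a gene (homeologs) on its long and short subgenome. Current RefSeq names place gata4 on chromosomes 5L and 5S, gata5 on 9_10L and 9_10S, and gata6, sox17a and sox17b.1 on 6L and 6S. All 10 exon entries, and the intron entries of all but sox17a.L, passed the filter on low values.

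Sox17 proteins are HMG-box transcription factors of the SoxF group, and Gata4, Gata5 and Gata6 are zinc-finger factors that bind GATA sequences. In the Xenopus blastula, maternal Vegt and the Nodal signals it induces switch on a network in the vegetal cells. In that network Mix and Bix homeobox factors, Sox17 and Gata4 to Gata6 act together and on one another to specify endoderm. The gata4 to gata6 genes are also known for roles in heart formation. Transcription of the embryo's own genome starts in the mid-blastula, before which the embryo runs on maternal mRNA.

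RNA was sequenced from whole embryos, 2 embryos per library, in 60 libraries and 29 groups. Untreated embryos were taken at stages 5 (n = 2), 6 (n = 1), 7 (n = 1), 8 (n = 2), 9 (n = 2) and 10.5 (n = 2). Both stage 5 libraries are labelled as depleted of COX2 and COX3, a step named for no other group. Per the paper, the stage 10.5 libraries held spiked-in RNA for GFP, mCherry and luciferase, made in vitro for another purpose. All other groups were collected 8 h after fertilization, when untreated embryos had reached the middle of stage 9, and are labelled with that stage, although embryos given cycloheximide at stage 8 did not progress to it. The embryos of 1 experimental day are called a collection (A to H). Triptolide, which blocks transcription initiation, was given at 20 µM from stage 1 in collections A and B (n = 2 each), with DMSO as the vehicle (n = 2 each). Cycloheximide, which blocks translation, was given at 500 µg/mL from stage 8, to uninjected embryos in collection B (n = 2). Transcripts that still appear under it are those that need no newly made protein.

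Morpholinos (MOs) that block translation of pou5f3.3 (a maternal OCT4 homolog), its paralog pou5f3.2 and sox3 were injected. An MO against GFP, which has no target in the embryo, served as the control. Without cycloheximide these were pou5f3.3 and sox3 MO in collection G (40 ng each plus 40 ng GFP MO, n = 3) and E (40 ng each, n = 1), and pou5f3.2 and pou5f3.3 MO in F (40 ng each plus 40 ng GFP MO, n = 3). All 3 MOs together (triple MO) were injected in F (40 ng each, n = 3). GFP MO was 120 ng in F and G (n = 3 each) and 80 ng in E (n = 1), where 1 library was untreated. With cycloheximide, collection C held pou5f3.3 MO or sox3 MO (40 ng plus 40 ng GFP MO), both (40 ng each) and GFP MO (80 ng), n = 2 each. Collection D held a high dose of both (55 ng pou5f3.3 and 75 ng sox3 MO) and GFP MO (80 ng), n = 2 each. Triple MO with cycloheximide was made in F (n = 3). Collection H held GFP MO (120 ng, n = 2), GFP MO with cycloheximide (120 ng, n = 3) and triple MO with cycloheximide (40 ng each, n = 2), and is treated apart because its 5 cycloheximide libraries are marked as discarded, for a likely problem with that treatment. Its 2 GFP MO libraries without cycloheximide carry no such mark.

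Between 6809284 and 25358689 read pairs per library were counted on exons. Intron reads, which come largely from unspliced new transcripts, made up 0.446% to 14.9% of a library's counted reads. Within a lettered collection, replicates came from the same mixed clutches, so p-values there measure the spread between sets of 2 embryos. For libraries without a named collection, it is not given whether replicates shared clutches or an experimental day. An MO blocks translation and need not lower its target's mRNA: pou5f3.3.L, pou5f3.2.L and sox3.L had 517.8 ± 18.8, 268.4 ± 21.0 and 388.1 ± 25.2 TPM (transcript abundance per length and depth) in the triple morphants of F, against 435.0 ± 1.86, 204.2 ± 8.43 and 389.4 ± 14.5 TPM with GFP MO (SD, n = 3 each). In whole embryos, fewer cells of a type and less RNA per cell cannot be told apart, nor do these levels place a transcript in the endoderm. Levels below are exon TPM, or intron RPKM (reads per length and depth) where named. A gene is called where its exon or intron entry differed by at least 1.5 on the log2 scale at an adjusted p under 0.05 (edgeR's quasi-likelihood test, Benjamini-Hochberg adjustment over all entries). The share of all genes called the same way is given beside each first count. No such share is given for groups that did not overlap, so a lack of overlap only describes the named genes.

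The sox17 genes were low through cleavage, high at stage 9 and higher again at stage 10.5. Their exons summed to 1.71 ± 0.177 TPM in stage 5 libraries, 5.36 ± 0.412 TPM in stage 8, 131.7 ± 12.1 TPM in stage 9 and 368.6 ± 1.24 TPM in stage 10.5 libraries (SD, n = 2 each). The GATA genes reached high exon levels only at stage 10.5. gata4 summed over both copies to 0.0120 ± 0.0170 TPM (stage 5), 0 (stage 8), 3.01 ± 1.70 (stage 9) and 112.0 ± 3.65 TPM (stage 10.5). gata6 summed to 0 TPM (stage 5), 0.334 (stage 6, n = 1), 0.176 (stage 7, n = 1), 0.408 ± 0.0679 (stage 8), 2.13 ± 0.917 (stage 9) and 90.9 ± 3.26 TPM (stage 10.5). gata5 had a maternal level of 1.80 ± 0.258 TPM at stage 5, and was at 2.03 (stage 6, n = 1), 2.59 (stage 7, n = 1) and 1.62 ± 1.22 TPM (stage 8). It was at 2.62 ± 0.371 TPM at stage 9, within reach of the stage 7 level, and at 66.2 ± 3.96 TPM at stage 10.5. The collections of the stage 5, 8 and 10.5 libraries are not given, so stage and experimental day cannot be told apart. The paper credits its wild-type stage 5 RNA-seq to an earlier study, so stage 5 and study cannot be told apart either.

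**Figure D1:**
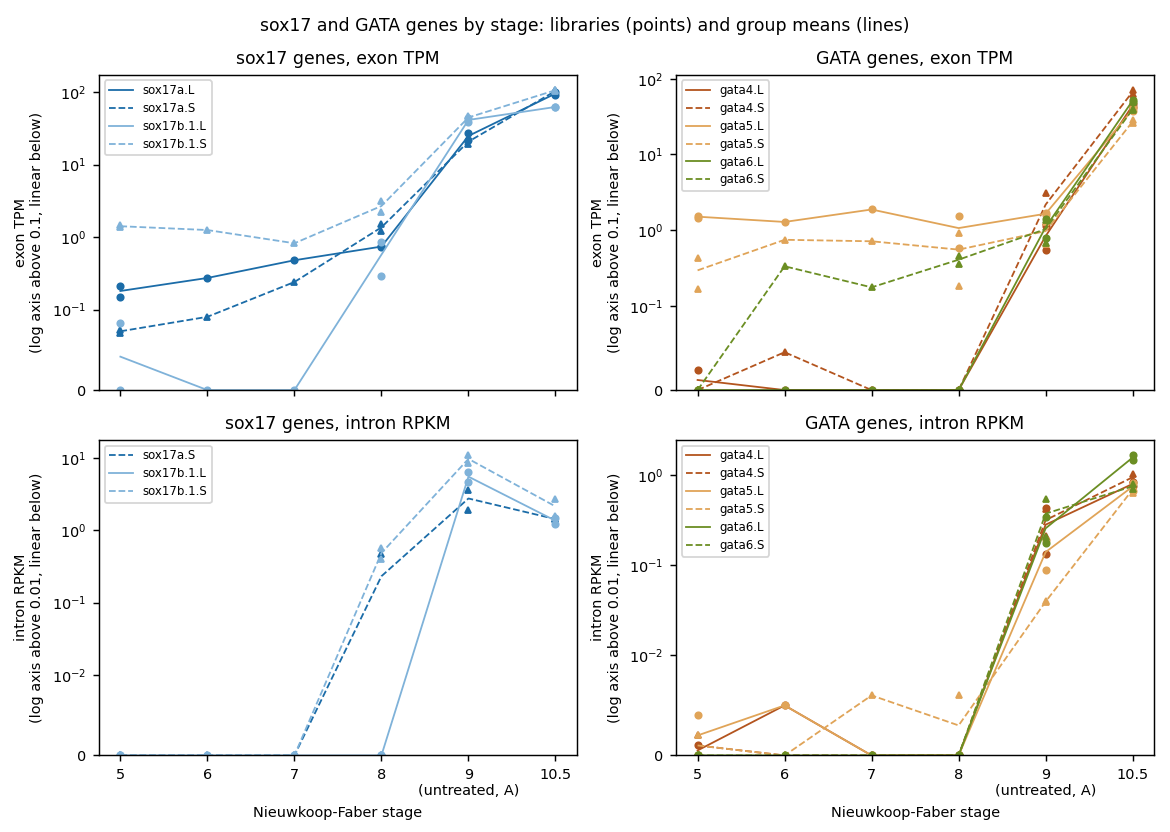
Exon TPM (top) and intron RPKM (bottom) of the sox17 genes (left) and GATA genes (right) from stage 5 to stage 10.5, with libraries as points and group means as lines on a log axis that turns linear near 0. The sox17 exons reach 123.2 to 140.3 TPM in sum at stage 9, while gata4, gata5 and gata6 exceed 5 TPM only at stage 10.5, and sox17b.1 introns are lower at stage 10.5 than at stage 9.

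At stage 8, 3 of the 10 genes were called higher than at stage 5, against 8.31% of all genes tested. sox17a.S had 1.5 and 1.23 TPM at stage 8, against 0.0710 and 0.0750 TPM at stage 5. The groups did not overlap, but the ratio of 18.7 rests on 11 reads at stage 8 and 2 at stage 5 (95% counting interval 4.09 to 174, edgeR adjusted p = 0.0061). gata6.S had 0.456 and 0.360 TPM at stage 8 and no read at stage 5, at least 10.2-fold higher (3 counts over the group as the floor, edgeR adjusted p = 0.00073). Both gata6 copies together were already at 0.334 TPM in the stage 6 library and 0.176 TPM in the stage 7 library (n = 1 each). The call rests on the absence of reads at stage 5 and does not place the onset of gata6.S at stage 8. sox17b.1.S was called on its introns alone, with 5 reads at stage 8 and 0 at stage 5 (at least 5.68-fold higher, edgeR adjusted p = 0.0073). The intron entries were built without regions covered at stage 5, so the lack of reads there is in part by construction. Without replicate 1 of stage 8 the sox17a.S call was lost (edgeR adjusted p = 0.060), and without replicate 2 the sox17b.1.S call (edgeR adjusted p = 0.076). Counting intervals cover counting error only. A floor sets the empty group to 3 counts and takes the reads of the other group as counted. Folds given as at least a value leave out counting error in those reads, here and below. sox17a.L, at 0.744 and 0.736 TPM at stage 8 and 0.213 and 0.148 TPM at stage 5, was not called (log2 difference 1.95 ± 1.17 (SE), edgeR adjusted p = 0.24). Neither was sox17b.1.S on exons, which carried a maternal level of 1.47 and 1.36 TPM at stage 5.

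By stage 9 (untreated, collection A) all 10 genes were called higher than at stage 5, against 35.4% of all genes tested. sox17a.L had 22.2 and 27.6 TPM at stage 9, against 0.213 and 0.148 TPM at stage 5 (log2 difference 6.86 ± 0.38 (SE), edgeR adjusted p = 4.3e-22). sox17b.1.S had 42.8 and 46.6 TPM at stage 9, against 1.47 and 1.36 TPM at stage 5 (4.84 ± 0.24, edgeR adjusted p = 2.1e-23). sox17b.1.L, with 38.8 and 43.9 TPM at stage 9 and a single read at stage 5, was 892.9-fold higher (95% counting interval 159.7 to 35320). No stage 9 library came near a stage 5 library in any sox17 gene.

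For the GATA genes the stage 9 exon levels were low, and much of the signal lay in introns. gata4.S had 1.27 and 3.09 TPM at stage 9 and no exon read at stage 5, at least 36.2-fold higher. gata6.L had 0.795 and 1.40 TPM and gata6.S 0.687 and 1.38 TPM at stage 9, both without a read at stage 5, at least 20.3-fold and 23.3-fold higher. Both gata4 and both gata6 genes were higher in replicate 2 of stage 9 than in replicate 1. gata5.L was called on its introns alone, at 0.0890 and 0.191 RPKM at stage 9, against 0 and 0.00400 RPKM at stage 5 (ratio 62.8, 95% counting interval 16.9 to 525.6), while its exons, at 1.70 and 1.60 TPM at stage 9 and 1.56 and 1.46 TPM at stage 5, differed by 0.00 ± 0.35. gata5.S had 0.661 and 1.28 TPM at stage 9, against 0.424 and 0.166 TPM at stage 5 (1.53 ± 0.61, edgeR adjusted p = 0.028), and 30 intron reads, against 1. Its exon call was lost without replicate 2 of stage 9 (edgeR adjusted p = 0.33) or of stage 5 (edgeR adjusted p = 0.24). Introns made up 7.38% to 7.66% of counted reads at stage 9 and 0.562% to 0.578% at stage 5, and the intron entries were built without regions covered at stage 5, so their levels there are low in part by construction. Of the upstream genes (Vegt, the Nodal, Mix and Bix families and their partners), 29 of 31 tested rose and 1 fell. Their median exon difference was 6.87 with genes at 0 set to their bound, against 5.01 for the 10 genes on the same terms and -0.16 over all genes. At a bound stood 20 of the 31 upstream genes and 3 of the 10, so these 2 medians rest in part on lower limits. vegt.L, the maternal T-box activator itself, stood at 268.0 ± 10.1 TPM at stage 9 and 231.6 ± 2.89 TPM at stage 5 (SD, n = 2 each).

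Between stage 9 and stage 10.5, the early gastrula, 8 of the 10 genes were called higher, against 25.7% of all genes tested, and 2 lower, against 14%. gata4.L had 46.4 and 42.6 TPM at stage 10.5, against 0.547 and 1.12 TPM at stage 9 (log2 difference 5.88 ± 0.19 (SE), edgeR adjusted p = 2.3e-32). gata6.L had 49.9 and 52.9 TPM at stage 10.5, against 0.795 and 1.40 TPM at stage 9 (5.69 ± 0.18, edgeR adjusted p = 2.8e-31). gata5.S had 26.2 and 28.1 TPM at stage 10.5, against 0.661 and 1.28 TPM at stage 9 (4.94 ± 0.25, edgeR adjusted p = 2.7e-23). The other GATA copies rose by 4.69 to 5.40 on the log2 scale, and no stage 10.5 library overlapped a stage 9 library in any of the 6.

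The sox17 genes moved less, and sox17b.1 moved in opposite directions on exons and introns. sox17a.L had 90.7 and 100.6 TPM at stage 10.5, against 22.2 and 27.6 TPM at stage 9 (2.08 ± 0.14, edgeR adjusted p = 1.1e-18), and sox17a.S rose by 2.46 ± 0.14. sox17b.1.L exons were at 62.2 and 62.8 TPM at stage 10.5, against 38.8 and 43.9 TPM at stage 9 (0.73 ± 0.14, edgeR adjusted p = 5.0e-06), under the size needed for a call. Its introns were at 1.49 and 1.21 RPKM at stage 10.5, against 4.59 and 6.41 RPKM at stage 9 (-2.07 ± 0.50, edgeR adjusted p = 0.00032). sox17b.1.S showed the same split, with introns at 2.67 and 1.59 RPKM at stage 10.5, against 8.38 and 11 RPKM at stage 9 (-2.24 ± 0.28, edgeR adjusted p = 6.4e-10), and exons 1.39 ± 0.13 higher. In both copies the intron and exon levels of the 2 stages did not overlap. The counted introns are short, 445 bases for sox17b.1.L and 745 for sox17b.1.S, so a low RPKM there stands for few reads. Intron reads were 14.9% of counted reads at stage 10.5 and 7.38% to 7.66% at stage 9, the reverse of the change in the sox17b.1 introns.

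The median exon difference between stages 10.5 and 9 was 4.82 over the 10 genes and -0.21 over all genes. With library scaling from DESeq2 size factors the all-gene median was 0.262 higher, and sox17b.1.S exons were then also called (1.69, edgeR adjusted p = 9.7e-16). The upstream genes went the other way as a list, with 23 of 31 lower and 5 higher, 4 of them called both ways on different entries, and a median of -0.65. Downstream endoderm genes and markers (foxa, hhex, cer1 and others) rose in 18 of 18, with a median of 4.50. Markers of the other germ layers rose too, in 12 of 13 for mesoderm (median 5.38) and in 10 of 13, with 2 lower, for ectoderm and neural tissue (median 2.75). The mesoderm markers summed to 1042 to 1079 TPM at stage 10.5 and 48.2 to 54.1 TPM at stage 9, and the ectoderm and neural markers to 3059 to 3138 TPM at stage 10.5 and 317.9 to 352.0 TPM at stage 9. The most abundant of the downstream genes were a2m.S, at 251.4 ± 6.13 TPM at stage 10.5 and 6.77 ± 0.302 TPM at stage 9, and cer1.S, a secreted Nodal, BMP and Wnt antagonist, at 240.7 ± 5.96 TPM at stage 10.5 and 5.00 ± 1.15 TPM at stage 9 (SD, n = 2 each). Of the SoxF and GATA relatives (sox7, sox18, gata1, gata2 and gata3), 5 of 8 tested rose and 1 fell, with a median of 5.40 over the 6 with a fold.

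The order of levels at stage 9 was sox17b.1.S, sox17b.1.L, sox17a.L and sox17a.S, then the GATA genes. sox17b.1.S (42.8 and 46.6 TPM) and sox17b.1.L (38.8 and 43.9 TPM) overlapped, and sox17a.L (22.2 and 27.6 TPM) and sox17a.S (19.4 and 22.1 TPM) met at their nearest libraries. At stage 10.5 the order was sox17b.1.S (104.4 and 108.6 TPM) and sox17a.S (101.7 and 106.2 TPM), which overlapped, then sox17a.L, gata4.S, sox17b.1.L, gata6.L, gata4.L, gata6.S and gata5.L, and gata5.S last. There gata6.S (38.7 and 40.3 TPM) and gata5.L (37.2 and 40.9 TPM) overlapped, and gata4.S (63.0 and 72.0 TPM) lay just above sox17b.1.L (62.2 and 62.8 TPM).

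All 10 genes fell under triptolide in both collections, against 27.4% of all genes tested in A and 29.8% in B. sox17a.L had 0.303 and 0.103 TPM with triptolide, against 28.4 and 22.5 TPM with DMSO in A (log2 difference -6.72 ± 0.42 (SE), edgeR adjusted p = 7.9e-20). In B it had 0.416 and 0.260 TPM, against 28.2 and 31.4 TPM (-6.33 ± 0.32, edgeR adjusted p = 1.2e-23). sox17b.1.S had 0.925 and 0.119 TPM with triptolide, against 45.9 and 46.9 TPM with DMSO in A, and 0.159 and 0.595 TPM, against 45.0 and 43.6 TPM, in B. gata4.S had no read with triptolide in A, against 4.07 and 3.10 TPM with DMSO, at least 42.5-fold lower. gata6.L likewise had no read with triptolide in A, against 1.61 and 1.16 TPM with DMSO, at least 18.2-fold lower. Triptolide and DMSO libraries did not overlap for any sox17, gata4 or gata6 gene.

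gata5 was the exception on exons and was called on introns only. gata5.L kept 1.63 and 1.73 exon TPM with triptolide in B, against 2.78 and 3.03 TPM with DMSO (-0.69 ± 0.28, edgeR adjusted p = 0.050), near its stage 5 level of 1.56 and 1.46 TPM. Its introns were at 0.00400 and 0.0150 RPKM with triptolide, against 0.129 and 0.139 RPKM with DMSO (-3.67 ± 0.58, edgeR adjusted p = 5.4e-07). gata5.S had 1.45 and 0.582 exon TPM with triptolide in B, against 1.47 and 1.57 TPM with DMSO, and no intron read, against 26, which is at least 11.2-fold lower. Intron reads were 0.423% to 0.799% of counted reads with triptolide and 5.29% to 7.31% with DMSO over both collections. The difference of the triptolide effect, B minus A, was called lower for 0 of the 10 genes by edgeR, against 0.377% of all genes tested, and for 0 by DESeq2. The 1 gene at an unadjusted p under 0.05 had a higher value, not a lower one. Such a p was found for 2824 of all 27602 genes tested, in either direction. The vehicle alone called 0 of the 10 genes by edgeR and 0 by DESeq2 over untreated embryos of A, against 0.0109% of all genes higher. There 4 of the 10 had an unadjusted p under 0.05, all with a higher value in DMSO. So had 1442 of all 27602 genes tested, in either direction.

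**Figure D2:**
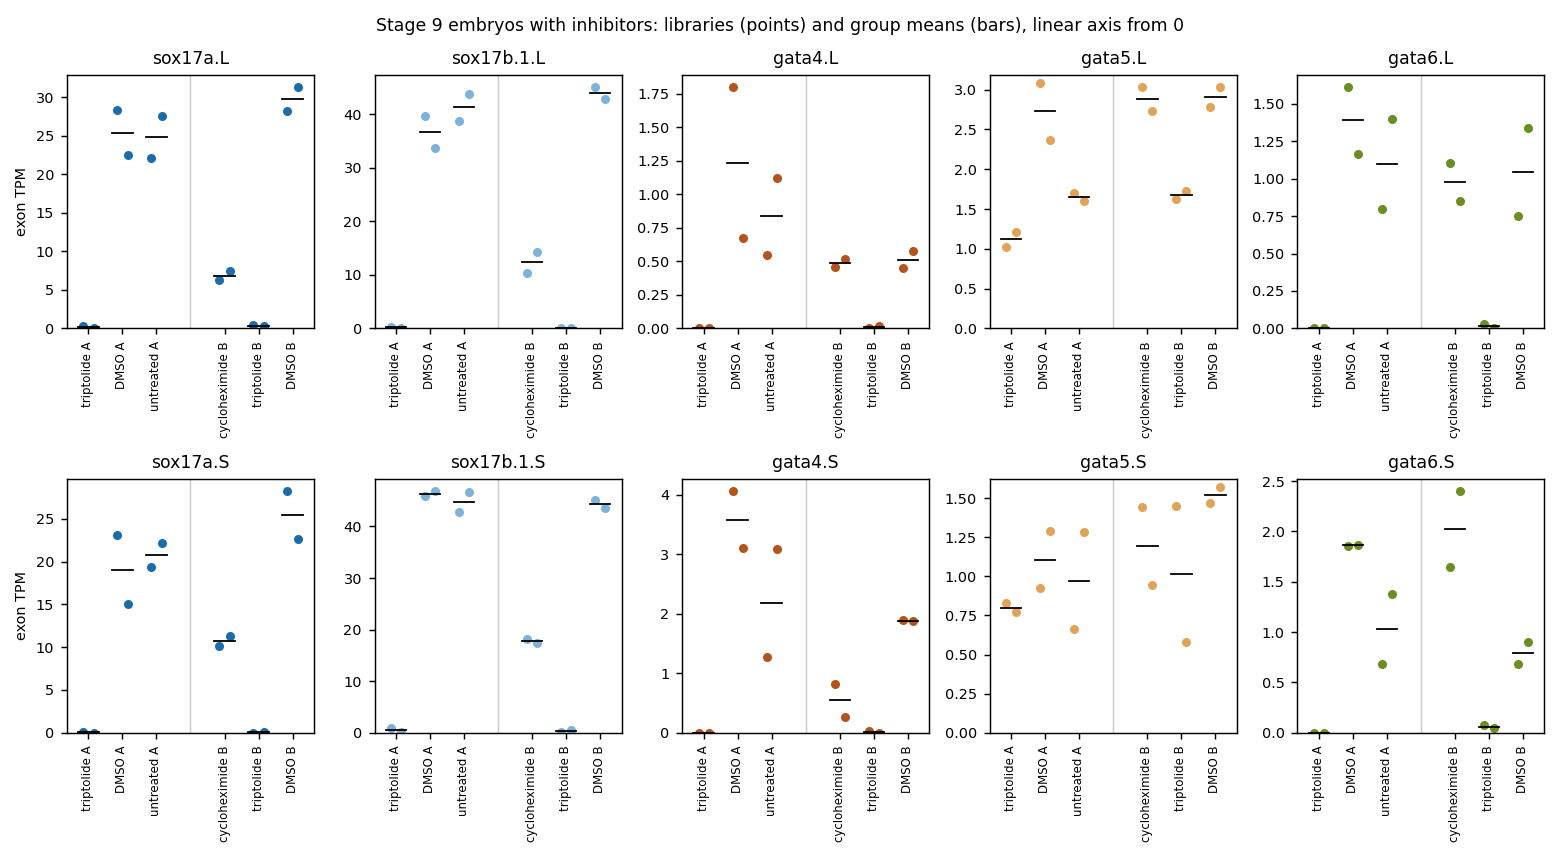
Exon TPM of the 10 genes at stage 9 with triptolide, DMSO or no treatment in collection A and with cycloheximide, triptolide or DMSO in collection B, each panel with its own linear axis from 0, points for libraries and bars for group means. With cycloheximide the sox17 genes sit between triptolide and DMSO, at 45.1 to 50.4 TPM in sum, against 140.5 to 146.7 TPM with DMSO, while gata6.S sits above DMSO.

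With cycloheximide all 10 genes were called higher than with triptolide, against 14.2% of all genes tested. The comparisons of cycloheximide with triptolide and with DMSO use the same cycloheximide libraries, and those of triptolide use the same triptolide and DMSO libraries. sox17a.S had 10.2 and 11.3 TPM with cycloheximide, against 0 and 0.131 TPM with triptolide (ratio 142.3, 95% counting interval 38.9 to 1182). sox17b.1.S had 18.2 and 17.4 TPM, against 0.159 and 0.595 TPM (5.33 ± 0.37, edgeR adjusted p = 3.3e-17). gata6.S had 1.65 and 2.40 TPM, against 0.0760 and 0.0480 TPM (4.76 ± 0.48, edgeR adjusted p = 1.1e-11). gata4.L and gata4.S, on 31 and 24 exon reads with cycloheximide and 1 with triptolide each, had ratios of 39.7 (6.62 to 1620) and 30.8 (5.02 to 1265). gata5.L and gata5.S were called on introns, with gata5.L at 0.135 and 0.115 RPKM with cycloheximide and 0.00400 and 0.0150 RPKM with triptolide. The median exon difference of the 10 genes was 5.13, against 0 over all genes. Among the upstream genes 22 of 31 rose, and among the relatives 4 of 8.

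Set against DMSO, cycloheximide split the genes. It lowered 5 of the 10, against 20.6% of all genes tested, and edgeR called 0 higher, against 2.21%, with 2 higher at an unadjusted p under 0.05 and 0 by DESeq2. An unadjusted p under 0.05, in either direction, was found for 12461 of all 27602 genes tested. sox17a.L had 6.24 and 7.49 TPM with cycloheximide, against 28.2 and 31.4 TPM with DMSO (-2.19 ± 0.19, edgeR adjusted p = 5.4e-14). sox17b.1.L had 10.4 and 14.2 TPM, against 45.2 and 42.9 TPM (-1.91 ± 0.16, edgeR adjusted p = 7.1e-15). gata4.S had 0.828 and 0.261 TPM, against 1.90 and 1.87 TPM (-1.78 ± 0.51, edgeR adjusted p = 0.0047). These 3 did not overlap between the groups. sox17a.S and sox17b.1.S fell by 1.3 ± 0.18 and 1.37 ± 0.16 on exons, under the size for a call, and were called on introns. The sox17a.S intron call (-2.10 ± 0.77, edgeR adjusted p = 0.029) rests on 4 reads with cycloheximide and 18 with DMSO and was lost without replicate 1 of either group (edgeR adjusted p = 0.24 without cycloheximide replicate 1 and 0.22 without DMSO replicate 1). gata4.L had 0.460 and 0.517 TPM with cycloheximide, against 0.450 and 0.575 TPM with DMSO.

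The gata6 and gata5 genes were not among those called lower with cycloheximide. gata6.S had 1.65 and 2.40 TPM with cycloheximide, against 0.687 and 0.905 TPM with DMSO, a difference of 1.25 ± 0.30 (edgeR adjusted p = 0.00070) under the size for a call. It reached 1.54 (edgeR adjusted p = 0.00028) without cycloheximide replicate 1. gata6.L introns were at 0.324 and 0.212 RPKM with cycloheximide, against 0.133 and 0.141 RPKM with DMSO (1.02 ± 0.33, edgeR adjusted p = 0.014), although intron reads as a whole were 1.70% to 2.09% of counted reads with cycloheximide and 5.29% to 5.46% with DMSO. The relatives rose in 4 of 8, with a median of 3.92 over the 5 with a fold, against 0.08 over all genes. gata2.S, a GATA factor of ventral mesoderm and blood, had 7.57 ± 1.12 TPM with cycloheximide, against 0.463 ± 0.00778 TPM with DMSO (SD, n = 2 each; 3.95 ± 0.28, edgeR adjusted p = 6.5e-17). gata2.L had 6.51 ± 0.297 TPM, against 0.937 ± 0.0523 TPM (2.73 ± 0.29). The upstream genes fell in 25 of 31 and rose in 1, with a median of -3.32. Marker sums were lower with cycloheximide. Downstream endoderm genes summed to 15.5 to 19.7 TPM with cycloheximide and 93.1 to 98.1 TPM with DMSO (8 of 18 lower, 3 higher). Ectoderm and neural markers summed to 125.9 to 146.8 TPM with cycloheximide and 310.7 to 322.4 TPM with DMSO (6 of 13 lower, 2 higher). Mesoderm markers summed to 20.5 to 24.9 TPM with cycloheximide and 57.6 to 58.1 TPM with DMSO (5 of 13 lower). The part of these marker changes in the sox17 and GATA values was not tested.

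Without cycloheximide, gata6.S was called higher in the morphants of both replicated collections, and the means of all sox17 and gata4 genes lay above the control. In collection G, pou5f3.3 and sox3 MO raised 2 of the 10 genes, against 3.41% of all genes tested. gata6.S had 0.722, 0.975 and 0.701 TPM in the morphants, against 0.137, 0.0480 and 0 TPM with GFP MO (3.5 ± 0.62, edgeR adjusted p = 2.7e-05), on 57 reads and 4 reads. Its introns were at 0.177, 0.154 and 0.170 RPKM, against 0.0180, 0.0370 and 0.0280 RPKM (2.46 ± 0.53, edgeR adjusted p = 0.00056). No morphant library overlapped a control on either entry. gata6.L was called on its introns, at 0.164, 0.116 and 0.0790 RPKM in the morphants, against 0.00900, 0.0400 and 0.0430 RPKM with GFP MO (1.85 ± 0.55, edgeR adjusted p = 0.015). That call was lost without GFP MO replicate 1 (1.39, edgeR adjusted p = 0.12) and without morphant replicate 1 (1.63, edgeR adjusted p = 0.074).

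The sox17 genes differed by less than the size for a call in G. sox17a.S had 15.8, 19.4 and 20.8 TPM in the morphants, against 6.76, 7.70 and 9.2 TPM with GFP MO (1.19 ± 0.18, edgeR adjusted p = 1.4e-06). sox17a.L had 24.4, 20.5 and 23.0 TPM, against 11.6, 11.2 and 9.72 TPM (0.98 ± 0.17, edgeR adjusted p = 1.1e-05). sox17b.1.S had 42.1, 28.1 and 46.3 TPM, against 18.1, 23.1 and 18.6 TPM (0.86 ± 0.14, edgeR adjusted p = 6.7e-06). In these 3 genes the groups did not overlap. sox17b.1.L had 23.2, 14.7 and 21.3 TPM, against 17.1, 14.4 and 12.8 TPM, and did overlap (0.31 ± 0.16, edgeR adjusted p = 0.20). The median exon difference was 1.05 over the 10 genes and -0.09 over all genes. Of the upstream genes edgeR called 0 of 31 (median 0.23), with 18 higher and 5 lower at an unadjusted p under 0.05 and 1 called higher by DESeq2. Many genes had such a p in G, namely 8992 of all 27602 tested, in either direction. Of the relatives 3 of 8 rose (median 1.65 over the 7 with a fold). Intron reads were 5.47% to 5.76% of counted reads in the morphants and 3.85% to 4.2% with GFP MO.

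In collection F, pou5f3.2 and pou5f3.3 MO raised 3 of the 10 genes, against 2.24% of all genes tested, and the triple MO 5, against 3.86%; both use the same 3 GFP MO libraries. gata4.S had 3.96, 2.60 and 1.78 TPM with triple MO and 1.24, 2.34 and 1.64 TPM with pou5f3.2 and pou5f3.3 MO, against 0.819, 0.268 and 0.504 TPM with GFP MO. The differences from GFP MO were 2.42 ± 0.43 (edgeR adjusted p = 1.5e-05) and 1.73 ± 0.48 (edgeR adjusted p = 0.0089). gata6.S had 1.90, 1.15 and 1.27 TPM with triple MO and 1.36, 0.888 and 1.14 TPM with pou5f3.2 and pou5f3.3 MO, against 0.101, 0.318 and 0.333 TPM with GFP MO (2.41 ± 0.38, edgeR adjusted p = 1.5e-06, and 2.07 ± 0.40, edgeR adjusted p = 0.00011). gata4.L had 1.69, 1.5 and 0.840 TPM with triple MO, against 0.360, 0.495 and 0.333 TPM with GFP MO (1.71 ± 0.36, edgeR adjusted p = 0.00021). For these 3 genes every morphant library lay above every control.

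The other called genes of F rested on a single entry. gata5.S was called with triple MO on its introns, at 0.105, 0.0560 and 0.113 RPKM, against 0.0370, 0.0150 and 0.0220 RPKM with GFP MO (1.88 ± 0.43, edgeR adjusted p = 0.00074). sox17a.S was called with triple MO on its exons, at 28.7, 30.3 and 24.1 TPM, against 8.86, 7.60 and 10.1 TPM with GFP MO (1.60 ± 0.16, edgeR adjusted p = 7.4e-12), and was at 1.47 without GFP MO replicate 2. gata6.L was called with pou5f3.2 and pou5f3.3 MO on its introns, at 0.198, 0.113 and 0.130 RPKM, against 0.0220, 0.0590 and 0.0630 RPKM with GFP MO (1.51 ± 0.45, edgeR adjusted p = 0.017). That call was lost without replicate 1 of GFP MO (edgeR adjusted p = 0.093) or of the morphants (edgeR adjusted p = 0.12). In the triple morphants gata6.L was at 1.25 ± 0.47 on introns (edgeR adjusted p = 0.059).

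The remaining sox17 genes were higher in F by less than the size for a call. sox17a.L had 37.1, 30.4 and 28.0 TPM with triple MO and 25.5, 28.7 and 22.3 TPM with pou5f3.2 and pou5f3.3 MO, against 13.4, 11.5 and 14.4 TPM with GFP MO (1.25 ± 0.15, edgeR adjusted p = 1.3e-09, and 0.94 ± 0.15, edgeR adjusted p = 4.0e-06). sox17b.1.S had 44.9, 44.7 and 36.2 TPM with triple MO, against 23.3, 24.5 and 23.8 TPM with GFP MO (0.76 ± 0.13, edgeR adjusted p = 9.6e-06), and sox17b.1.L was 0.74 ± 0.13 higher. None of these 3 genes overlapped between triple morphants and controls. Triple MO over pou5f3.2 and pou5f3.3 MO called 0 of the 10 genes by edgeR and 0 by DESeq2, against 0.257% of all genes higher, and 5 had an unadjusted p under 0.05, all with a higher value in the triple morphants. In that comparison 5327 of all 27602 genes tested had such a p, in either direction. sox17a.S differed most clearly there (0.61 ± 0.14, edgeR adjusted p = 0.0025). The triple MO effect of F minus the pou5f3.3 and sox3 MO effect of G was called higher for 0 of the 10 genes by edgeR and by DESeq2, against 0.322% of all genes, with 1 gene at an unadjusted p under 0.05. For this difference 6018 of all 27602 genes tested had such a p, in either direction.

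The median exon difference with triple MO was 1.06 over the 10 genes and -0.02 over all genes. Relatives rose in 6 of 8 by edgeR (3 of 8 by DESeq2), with a median of 1.45 at their bounds, among them gata2.L, at 1.2 ± 0.458 TPM with triple MO and 0.171 ± 0.0241 TPM with GFP MO (SD, n = 3 each; 2.78 ± 0.56). Upstream genes rose in 3 of 31 (median 0.21), and downstream endoderm genes rose in 3 and fell in 1 of 18 (median 0.28). cer1.S was at 3.19 ± 1.55 TPM with triple MO and 0.850 ± 0.283 TPM with GFP MO (1.86 ± 0.40, edgeR adjusted p = 0.00037). a2m.S was at 2.55 ± 0.238 TPM with triple MO and 6.31 ± 0.769 TPM with GFP MO (SD, n = 3 each).

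Markers of the other germ layers moved as well. The 13 mesoderm markers (tbxt, tbx6, wnt8a, myf5, myod1, msgn1 copies) summed to 54.4 to 59.1 TPM with triple MO and 39.3 to 41.7 TPM with GFP MO in F, with 2 higher and 2 lower, and to 40.1 to 47.9 TPM in the morphants and 20.3 to 23.1 TPM with GFP MO in G. tbxt.S, the Brachyury gene, was at 1.77 ± 0.511 TPM with triple MO and 6.66 ± 1.34 TPM with GFP MO (-1.95 ± 0.29, edgeR adjusted p = 5.7e-07). The 13 ectoderm and neural markers summed to 120.5 to 150.5 TPM with triple MO and 215.0 to 235.3 TPM with GFP MO in F, and 7 fell. zic1.S, a neural zinc finger gene, was at 6.10 ± 0.754 TPM with triple MO and 26.5 ± 0.854 TPM with GFP MO (-2.16 ± 0.15, edgeR adjusted p = 3.1e-17). In G the same ectoderm markers summed to 96.9 to 132.1 TPM in the morphants and 126.4 to 164.6 TPM with GFP MO. The part of such changes in the sox17 and GATA values was not tested.

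**Figure D3:**
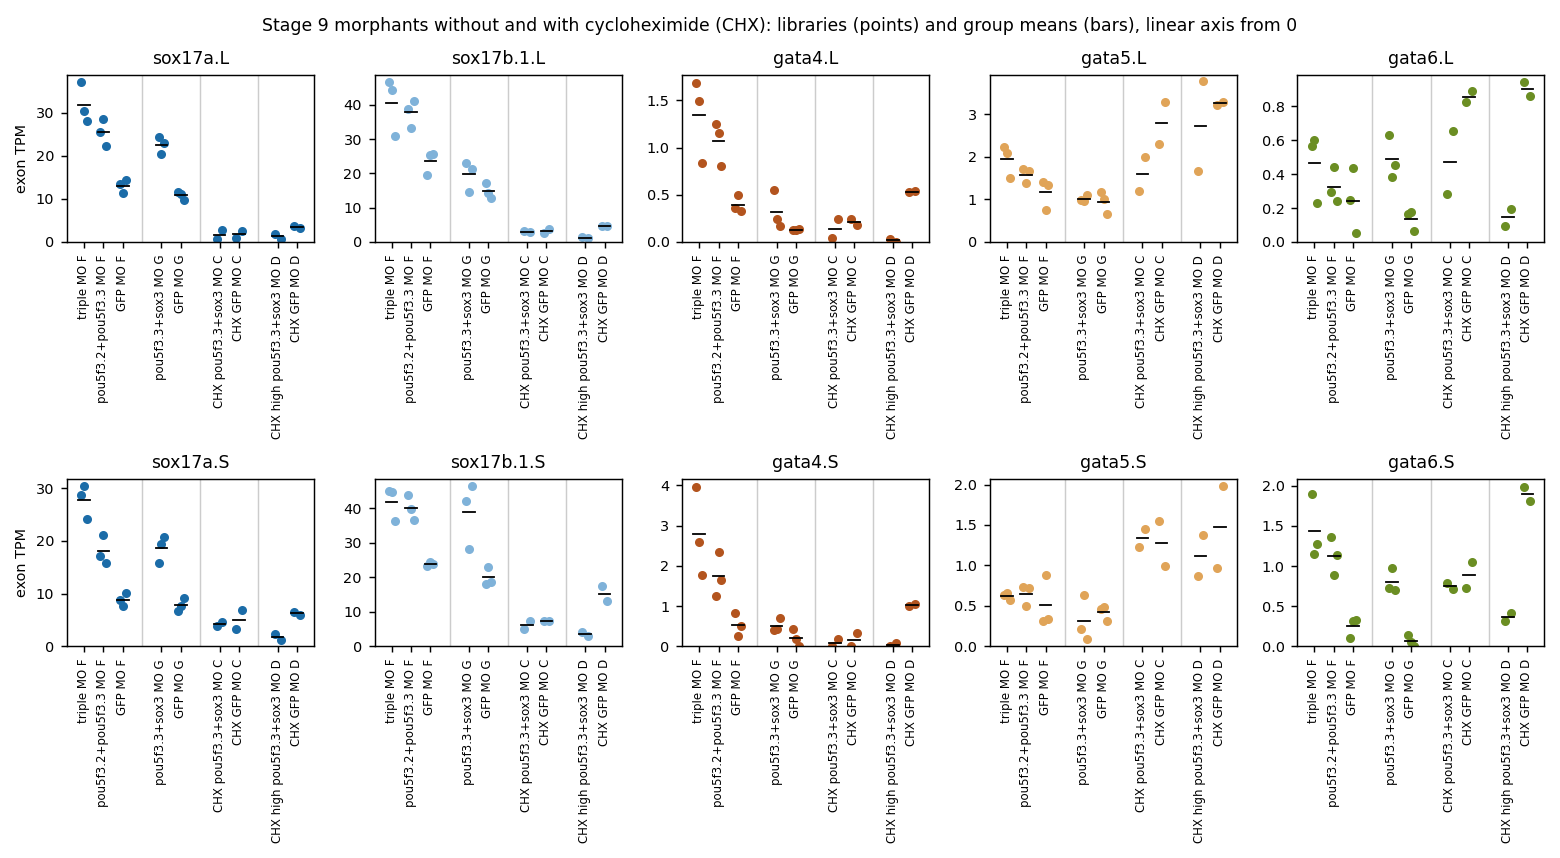
Exon TPM of the 10 genes at stage 9 in morphants and GFP MO controls of collections F and G without cycloheximide and of C and D with it (CHX), each panel with its own linear axis from 0, points for libraries and bars for group means. In F and G the morphants of sox17a.L (20.5 to 37.1 TPM) lie above their GFP MO controls (9.72 to 14.4 TPM), and in D the high-dose morphants (0.702 and 1.91 TPM) lie below theirs (3.29 and 3.81 TPM).

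Collection E, with 1 library per group and no test, had higher exon levels with the MOs than with GFP MO in all 10 genes but gata5.S (0.819 TPM with the MOs and 1.15 TPM with GFP MO). The share of all genes that were higher is not given for E. With the MOs and with GFP MO, mesoderm markers summed to 81.5 and 50.3 TPM and downstream endoderm genes to 132.5 and 84.7 TPM. Upstream genes summed to 1864 and 1479 TPM, and ectoderm and neural markers, the other way, to 190.6 and 302.8 TPM. sox17a.L was at 45.0 TPM with pou5f3.3 and sox3 MO, 19.4 TPM with GFP MO and 20.5 TPM untreated. gata6.S was at 3.94 TPM with the MOs, 0.620 TPM with GFP MO and 0.458 TPM untreated, and gata4.L at 2.51 TPM with the MOs, 0.460 TPM with GFP MO and 0.317 TPM untreated. gata4.S was at 3.13 TPM with the MOs, 0.697 TPM with GFP MO and 0.549 TPM untreated. sox17b.1.L, at 44.9 TPM with the MOs, 39.6 TPM with GFP MO and 48.8 TPM untreated, had the smallest gap of the sox17 genes between the MOs and GFP MO. The sox17 exons of GFP MO embryos summed to 117.9 TPM in E, 69.3 ± 4.6 TPM in F and 53.4 ± 3.04 TPM in G (SD, n = 3 in F and G), so control levels differed between collections.

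With cycloheximide the calls among the 10 genes were lower in the morphants. At the lower dose in collection C few were called. The GFP MO controls with cycloheximide had lower means in C than in D. They summed to 17.4 ± 4.58 (C) and 29.6 ± 4.00 TPM (D) for sox17, and 0.37 ± 0.19 and 1.55 ± 0.044 TPM for gata4. For gata6 they summed to 1.74 ± 0.28 and 2.80 ± 0.18 TPM, and for gata5 to 4.07 ± 0.29 and 4.73 ± 0.76 TPM (SD, n = 2 each). In these controls gata4.S had 6 exon reads in C and 43 in D, so a fall in C had few reads to rest on. pou5f3.3 MO called 0 of the 10 genes lower by edgeR and 0 by DESeq2, against 0.67% of all genes tested, and 5 had an unadjusted p under 0.05, all lower. So had 2294 of all 27602 genes tested, in either direction. sox3 MO called 0 by either tool, against 0.0181% of all genes lower. It left 0 of the 10 at an unadjusted p under 0.05, against 1653 of all 27602 genes in either direction. Both MOs together lowered 1 gene, against 2.17% of all genes: gata6.L on introns, at 0.0320 and 0.0480 RPKM in the morphants, against 0.195 and 0.152 RPKM with GFP MO (-2.06 ± 0.54, edgeR adjusted p = 0.022). That call was lost without any 1 of the 4 libraries (edgeR adjusted p = 0.076 to 0.29). The 3 comparisons share the GFP MO libraries, whose sox17a.L levels alone were 0.858 and 2.65 TPM. sox17 exons summed to 15.1 ± 3.53 TPM with both MOs, 9.00 ± 0.0502 TPM with pou5f3.3 MO, 18.9 ± 1.97 TPM with sox3 MO and 17.4 ± 4.58 TPM with GFP MO (SD, n = 2 each). With both MOs 8 of 13 ectoderm and neural markers fell (median -1.71 over the 11 with a fold), summing to 39.4 to 42.3 TPM in the morphants and 103.7 to 140.9 TPM with GFP MO, and mesoderm markers summed to 17.7 to 19.7 TPM in the morphants and 16.2 to 18.6 TPM with GFP MO.

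At the high dose in collection D, 9 of the 10 genes were called lower, against 8.04% of all genes tested. sox17b.1.S had 4.24 and 3.11 TPM in the high-dose morphants, against 17.3 and 13.0 TPM with GFP MO (-2.0 ± 0.26, edgeR adjusted p = 4.6e-08). gata6.S had 0.311 and 0.419 TPM, against 1.99 and 1.81 TPM (-2.29 ± 0.37, edgeR adjusted p = 3.8e-06), and introns at 0.0310 and 0.0400 RPKM, against 0.420 and 0.400 RPKM (-3.43 ± 0.42, edgeR adjusted p = 1.0e-08). gata4.S had 0 and 0.0870 TPM, against 0.993 and 1.04 TPM (20.7-fold lower, 95% counting interval 5.39 to 176.2). All 3 were without overlap. gata6.L had 0.0950 and 0.197 TPM, against 0.943 and 0.860 TPM (-2.48 ± 0.59, edgeR adjusted p = 0.0026), and gata4.L 0.0350 and 0 TPM, against 0.524 and 0.538 TPM (32.7-fold lower, 5.49 to 1329). gata5.L and gata5.S were called on introns only. gata5.L introns were at 0.00600 and 0.00900 RPKM, against 0.109 and 0.0930 RPKM (-3.65 ± 0.71, edgeR adjusted p = 0.00012), while its exons, at 1.66 and 3.78 TPM, spanned the controls at 3.22 and 3.29 TPM.

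sox17a.S had 2.34 and 1.23 TPM in the high-dose morphants, against 6.54 and 5.96 TPM with GFP MO (-1.79 ± 0.35, edgeR adjusted p = 0.00013). sox17b.1.L had 1.48 and 1.02 TPM, against 4.78 and 4.57 TPM (-1.86 ± 0.41, edgeR adjusted p = 0.00080). sox17a.L had 1.91 and 0.702 TPM, against 3.81 and 3.29 TPM, and was not called (-1.44 ± 0.43, edgeR adjusted p = 0.024). Replicate 1 of the high dose was the higher one in these 3 genes: without it 10 genes were called (sox17a.L -2.25, edgeR adjusted p = 0.010), and without replicate 2 only 7 (sox17a.S -1.25, edgeR adjusted p = 0.084, and sox17b.1.L -1.49, edgeR adjusted p = 0.10). The median exon difference was -1.93 over the 10 genes and 0.02 over all genes. Intron reads were 0.565% to 0.623% of counted reads at the high dose and 1.51% to 1.71% with GFP MO. Ectoderm markers summed to 7.19 to 10.4 TPM at the high dose and 103.3 to 125.7 TPM with GFP MO, 11 of 13 lower, and mesoderm markers to 9.53 to 9.88 TPM at the high dose and 10.9 to 21.0 TPM with GFP MO. Upstream genes fell in 8 of 31 and relatives in 4 of 8, gata2.S among them (-3.03 ± 0.32).

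Whether the MO effect differed between the settings was tested as a difference of effects. Such a test asks whether effects are unequal, not whether their signs are opposite. The high-dose effect of D was not tested against that in embryos without cycloheximide. The pou5f3.3 and sox3 MO effect with cycloheximide in C minus that without it in G was called lower for 2 of the 10 genes, against 3.89% of all genes tested. gata6.S differed by -3.73 ± 0.78 on exons (edgeR adjusted p = 0.0012) and by -3.47 ± 0.90 on introns (edgeR adjusted p = 0.013), and gata6.L by -3.90 ± 0.77 on introns (edgeR adjusted p = 0.00064). sox17a.S differed by -1.44 ± 0.38 (edgeR adjusted p = 0.014) and sox17b.1.S by -1.13 ± 0.33 (edgeR adjusted p = 0.037), under the size for a call. Collection and GFP MO dose differ between C and G as well, and cannot be told apart from cycloheximide here. The effect at the high dose in D minus that in C was called lower for 2 genes, against 2.13% of all genes, namely sox17b.1.S (-1.74 ± 0.41, edgeR adjusted p = 0.010) and gata6.S (-2.06 ± 0.58, edgeR adjusted p = 0.045). The gata6.S call was lost without any 1 of the 8 libraries (edgeR adjusted p = 0.055 to 0.26). The sox17b.1.S call was lost without some of them (edgeR adjusted p = 0.054 to 0.42), and 0 genes were called with these groups fitted alone, 5 by the legacy fit and 7 by DESeq2. Dose and collection cannot be told apart.

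**Figure D4:**
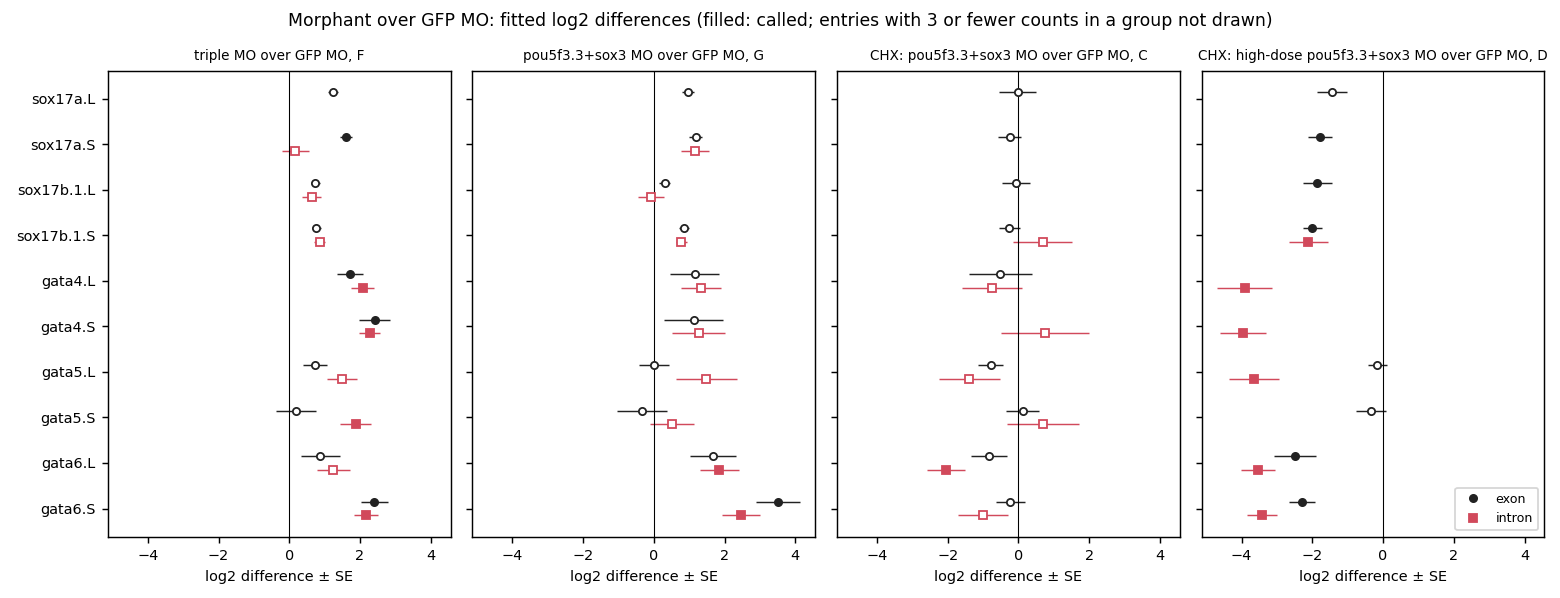
Fitted log2 differences (± SE) of morphants over GFP MO for the exon (circles) and intron (squares) entries of the 10 genes in collections F (triple MO) and G (pou5f3.3 and sox3 MO) without cycloheximide and C and D (pou5f3.3 and sox3 MO) with it, filled where called, with entries of 3 or fewer reads in a group left out. Called points lie right of 0 in F and G, from 1.60 to 3.5, and left of 0 in C and D, from -1.79 to -3.96.

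In collection F, where triple MO was given with and without cycloheximide, all 10 genes were called lower with it, against 31.2% of all genes tested. sox17a.L had 0.511, 0.875 and 0.320 TPM with cycloheximide, against 37.1, 30.4 and 28.0 TPM without (-5.80 ± 0.27, edgeR adjusted p = 1.1e-24). sox17b.1.L had 1.55, 2.91 and 2.11 TPM, against 46.6, 44.4 and 30.8 TPM (-4.22 ± 0.20, edgeR adjusted p = 2.1e-25). gata4.S had 0.0510, 0 and 0.317 TPM, against 3.96, 2.60 and 1.78 TPM (-4.38 ± 0.57, edgeR adjusted p = 3.4e-09). The groups did not overlap in these 3 genes. gata6.S fell by 2.01 ± 0.35, and gata6.L (-2.44 ± 0.56), gata5.L (-4.2 ± 0.64) and gata5.S (-1.88 ± 0.42) were called on introns only. Intron reads were 0.875% to 1.1% of counted reads with cycloheximide and 6.38% to 7.36% without. Ectoderm and neural markers summed to 12.7 to 32.0 TPM with cycloheximide and 120.5 to 150.5 TPM without (9 of 13 lower), and mesoderm markers to 5.88 to 7.19 TPM with cycloheximide and 54.4 to 59.1 TPM without (7 of 13 lower). F held no GFP MO with cycloheximide, and set against the GFP MO libraries of C and D with cycloheximide the triple morphants were lower in 6 of the 10 genes, against 9.72% of all genes, a comparison in which collection and MO cannot be told apart. sox17a.L was at 0.511, 0.875 and 0.320 TPM, against 0.858, 2.65, 3.81 and 3.29 TPM in those controls (-2.15 ± 0.47, edgeR adjusted p = 0.00025), and gata6.L at 0.0920, 0.448 and 0.0960 TPM, against 0.825, 0.890, 0.943 and 0.860 TPM (-2.10 ± 0.46, edgeR adjusted p = 0.00026). Without replicate 2 of GFP MO in C only 4 genes were called (sox17a.L -1.52, edgeR adjusted p = 0.059).

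Collection H, whose cycloheximide libraries are marked as discarded, gave other calls than D, a difference that was not tested. GFP MO with cycloheximide over GFP MO raised 1 gene (3 by DESeq2, the legacy fit, no filter, a separate fit or the replicate block), against 2.79% of all genes tested, and lowered 1, against 7.67%. gata6.S introns were at 0.157, 0.211 and 0.162 RPKM with cycloheximide, against 0.0140 and 0 RPKM without (ratio 26.4, 95% counting interval 8.88 to 129.1, edgeR adjusted p = 3.9e-05). sox17a.L had 2.57, 2.22 and 3.25 TPM with cycloheximide, against 8.31 and 8.13 TPM without (-1.58 ± 0.31, edgeR adjusted p = 9.8e-05), and was at -1.46 without cycloheximide replicate 2. Triple MO over GFP MO, both with cycloheximide, raised 1 gene, against 2.11%, and lowered 1, against 2.6%. These were gata5.S on introns, at 0.0160 and 0.0830 RPKM with triple MO, against 0.00300, 0.00900 and 0.00300 RPKM with GFP MO (3.26 ± 0.80, edgeR adjusted p = 0.0030), and gata6.L on introns (-2.35 ± 0.74, edgeR adjusted p = 0.033). The gata5.S call was lost without triple MO replicate 2 (1.75, edgeR adjusted p = 0.52), and the gata6.L call without triple MO replicate 1 (edgeR adjusted p = 0.48) or GFP MO replicate 1 or 3 (edgeR adjusted p = 0.074 and 0.12). sox17 exons summed to 26.9 ± 1.82 TPM with triple MO (SD, n = 2) and 21.8 ± 2.52 TPM with GFP MO (SD, n = 3), both with cycloheximide. Intron reads were 2.71% to 2.95% of counted reads with triple MO and 2.42% to 2.73% with GFP MO there.

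The levels of the L and S copies of each gene are set side by side here, without a test between copies. Reads that matched both copies equally well were not counted, so a share compares the reads that could be assigned. Where both copies summed to at least 1 TPM, the L copy made up 45.9% ± 13.1 of sox17a (SD, 52 libraries), 37.4% ± 13.6 of sox17b.1 (56 libraries), 33.2% ± 7.72 of gata4 (21 libraries), 70.5% ± 10.4 of gata5 (58 libraries) and 37.1% ± 16.2 of gata6 (37 libraries). These libraries include those of H. Outside H, a choice made after seeing the data, the means were 45.3% ± 13.4 for sox17a (SD, 45 libraries), 36.1% ± 13.8 for sox17b.1 (49 libraries), 33.1% ± 7.90 for gata4 (20 libraries), 69.2% ± 10.1 for gata5 (51 libraries) and 40.3% ± 13.2 for gata6 (32 libraries). Thus, on exon TPM pooled over unlike stages and treatments, gata5 was mostly L and gata4 mostly S. The gata4 introns were less one-sided. At stage 9 (untreated) they had 260 reads for L and 245 for S. With DMSO they had 415 and 377 in A, and 138 and 229 in B (intron lengths 29076 bases for L and 24125 for S). At stage 10.5, where reads are most plentiful, the L share was 47.9% ± 2.58 for sox17a, 37.0% ± 0.806 for sox17b.1, 39.8% ± 3.69 for gata4, 59.0% ± 0.477 for gata5 and 56.5% ± 0.336 for gata6 (SD, n = 2 each).

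The share of a pair shifted with stage and treatment, given here as a description without a test. sox17b.1 was almost entirely S at stage 5, with 2.68% ± 3.79 L. It was at 18.0% ± 13.5 L at stage 8, 48.0% ± 0.660 at stage 9 and 37.0% ± 0.806 at stage 10.5 (SD, n = 2 each). sox17b.1.L had 1 exon read at stage 5 and 4 at stage 8, so the shares at those stages rest on few reads. sox17a had 38.1% and 39.8% L with cycloheximide in B, against 50.0% and 58.1% with DMSO, and it was 36.2% ± 0.883 in GFP MO embryos with cycloheximide in D. Without cycloheximide sox17a was at 53.4% ± 3.17 with triple MO and 59.7% ± 0.832 with GFP MO in F (SD, n = 3 each), without overlap. gata6, at 52.0% ± 2.39 L in untreated embryos at stage 9, was at 24.2% ± 9.59 with triple MO in F and 38.0% ± 9.28 with pou5f3.3 and sox3 MO in G, where gata6.S was the copy called on exons. No GFP MO library of F or G reached 1 TPM over both gata6 copies, so these morphant shares have no matched control.

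**Figure D5:**
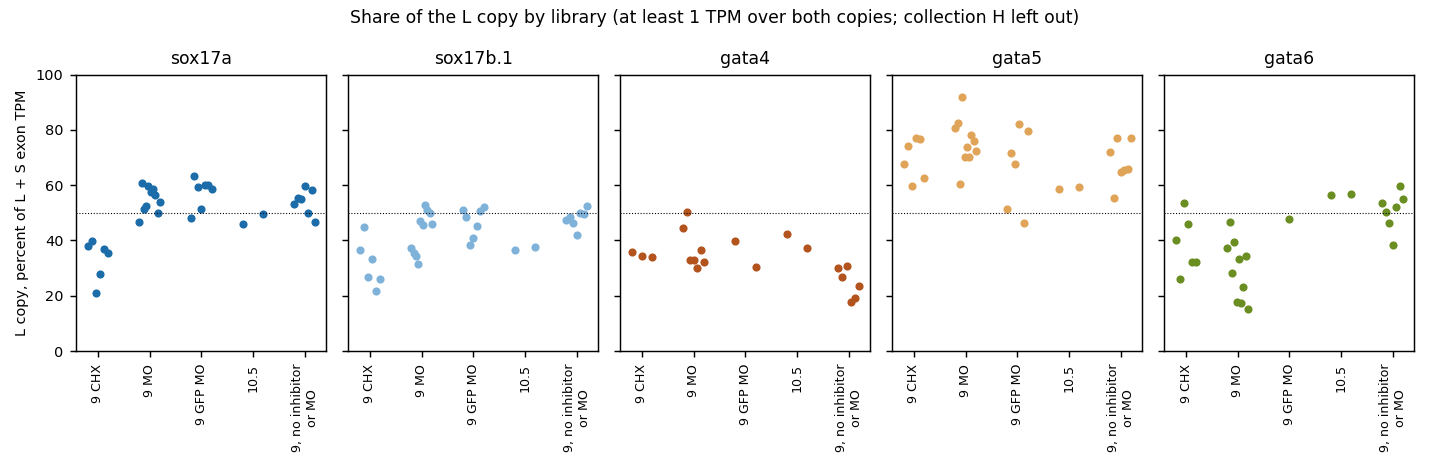
Share of the L copy in the summed exon TPM of both copies, in percent, for sox17a, sox17b.1, gata4, gata5 and gata6 by class of libraries, with points for libraries that had at least 1 TPM over both copies and a dotted line at 50. Among the stage 9 libraries plotted with neither inhibitor nor MO, sox17a lies between 46.7 and 59.8, and the uninjected and GFP MO libraries with cycloheximide of B, C and D, leftmost, between 21.1 and 39.8, while the morphants with cycloheximide of C, D and F, not plotted, lie between 14.9 and 49.9.

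Across the 26 groups outside collection H, the lists of the 5 nearest genes outside the 10 differed between the sox17 genes and the GATA genes. Likeness is Pearson's r between log2(mean TPM + 0.5) of a member and of each of 14716 named genes, and groups share stages and collections. The 10 members themselves were left out of the lists of nearest genes. Both copies of gata4, gata5 and gata6 summed to group means of 112.0, 66.2 and 90.9 TPM at stage 10.5. In the other groups they reached at most 5.64, 4.73 and 6.27 TPM. How far stage 10.5 alone sets the r of the GATA genes was not tested. The 5 genes most like sox17a.L were pou5f3.2.S, xetrov90011961m.S, mix1.S, XB5848002.S and gs17.L (r = 0.978 to 0.985). pou5f3.2.S was also among the 5 for sox17a.S (with id3.L, cxcr4.S, grhl3.L and foxi4.2.L), sox17b.1.L (with sgk1.L, cxcr4.L, ventx2.1.S and gs17.L) and sox17b.1.S (with sgk1.L, cxcr4.L, rasd1.L and fgf8.L). For gata4.L they were sp5.L, pdgfra.S, osr1.L, slc6a8.S and cass4.S (r = 0.961 to 0.970), and for gata4.S lrrn1.L, cer1.S, top2b.L, osr1.L and pcdh8.2.L. For gata6.L they were pkdcc.1.L, hoxd1.S, foxc2.L, hnrnpk.L and cdon.L, and for gata6.S hoxd1.L, foxc2.L, pkdcc.1.L, arhgef3.2.S and otx2.L. Among the genes nearest to gata5.L were slc2a1.L, osr2.S, pkdcc.2.L and dmbx1.S, and among those nearest to gata5.S gbx2.1.L, prom1.L, slc2a1.L and hdgf.L. So, with the members left out, no gene was shared between the sox17 lists and the GATA lists. Lists of 5 from 14716 genes can share little even between copies of the same gene: sox17a.L and sox17a.S shared only pou5f3.2.S. The lack of sharing therefore does not measure how far the sox17 and GATA genes differ. slc2a1.L stood in both gata5 lists, osr1.L in both gata4 lists and foxc2.L and pkdcc.1.L in both gata6 lists.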

How the data were processed

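The authors deposited read counts per gene on exons and introns, with exon TPM and intron RPKM. Reads had been aligned with HISAT2 (2.2.1 per the processing notes) and counted by featureCounts 2.0.1 with strand on X. laevis v9.2. Genes with exon counts but no TPM held 0.0672% to 0.885% of a library and were left out. Exons with at least 0.5 RPM and introns with more than 10 counts and at least 0.25 RPKM in a library entered 1 matrix, TMM-scaled. 53 libraries (27602 exon and 9916 intron entries) were fitted with edgeR 4.0.16 (R 4.3.3), and all 60 for collection H. The 20 comparisons and 4 differences of effects were tested by quasi-likelihood. The SE of a fitted difference was worked back from that test, as its size divided by the square root of the F value. Fitted fold changes were not printed where a group had 3 or fewer counts. Alternatives were DESeq2 1.42.0 and its size factors, exon-only scaling, the legacy fit, no filter, separate fits, a replicate block and leaving out each of 55 libraries. The members and lists were chosen with earlier results of these data known. Named were all members, the 2 genes of each list highest at stage 10.5, the 5 most like each member and the MO targets, of which some are not reported here.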

Additional observations from a re-analysis of the deposited data

Results flagged for a closer look

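The MO effect on gata6 differed between embryos with and without cycloheximide by the test of the difference itself. The pou5f3.3 and sox3 MO effect in collection C, with cycloheximide, minus that in G, without it, was -3.90 ± 0.77 (SE) on gata6.L introns (edgeR adjusted p = 0.00064), -3.73 ± 0.78 on gata6.S exons (edgeR adjusted p = 0.0012) and -3.47 ± 0.90 on gata6.S introns (edgeR adjusted p = 0.013). On gata6.S introns the call was lost without replicate 2 of GFP MO in C (edgeR adjusted p = 0.27) and without replicate 1 of the double morphants in C (edgeR adjusted p = 0.082). The effect of the high dose in D minus that in C was -2.06 ± 0.58 on gata6.S exons (edgeR adjusted p = 0.045) and -1.74 ± 0.41 on sox17b.1.S exons (edgeR adjusted p = 0.010). The gata6.S call was lost with the replicate block (edgeR adjusted p = 0.055), and both calls with these groups fitted alone (edgeR adjusted p = 0.10 for gata6.S and 0.055 for sox17b.1.S). Collection differs within both contrasts, and the amount of GFP MO or MO dose as well.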

How the results depend on the processing

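Of 3223 values of the members under alternatives other than a left-out library, 3148 kept their direction and their side of the threshold, 16 lost a call, 39 gained one, 20 uncalled ones changed sign and none called was reversed. With libraries left out, 2291 of 2527 stayed, 56 lost a call, 30 gained one and 150 uncalled ones changed sign. The members called higher by cycloheximide in GFP MO embryos of H numbered 3 with the replicate block, the legacy fit, no filter, these groups fitted alone and DESeq2, against 1. The difference C minus G called 4 members lower with these groups fitted alone, against 2. The difference D minus C called 1 with the replicate block, 5 with the legacy fit, 0 fitted alone and 7 by DESeq2, against 2. With a pseudocount of 1, gata5.L, gata5.S and gata6.L kept 3, 2 and 3 of their 5 nearest genes.

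With 1 library left out, the members called numbered 0 to 1 higher for DMSO over untreated, 0 to 1 higher for cycloheximide over DMSO, 0 lower for both MOs in C (0 to 0), 0 to 2 lower for D minus C, 1 to 2 higher in G, and 0 to 1 higher and 0 to 1 lower for triple MO in H. Elsewhere they were 2 to 3 at stage 8, 8 to 9 higher at stage 10.5, 4 to 5 lower for cycloheximide over DMSO, 2 to 4 and 5 to 7 higher for the double and triple MO of F, 7 to 10 in D, 4 to 6 for the triple morphants against C and D, and 2 to 3 for C minus G.

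Replicate numbers were not taken to pair the samples, since the labels tie them to nothing shared and no collection with 3 replicates correlated throughout. The correlation of same-numbered deviations ran from -0.219 to 0.346 in F, -0.180 to 0.0688 in G, 0.178 to 0.275 in A, -0.537 to -0.00758 in B and -0.0450 to 0.0999 in C, and was 0.341 in D. In F, 9 of 18 correlated best with their own number, in G 1 of 3, in A 6 of 6, in B 0 of 6, in C 6 of 12 and in D 2 of 2. The replicate block moved the members called from 5 to 4 for cycloheximide over DMSO, 3 to 2 for the double MO of F, 2 to 1 for D minus C and 1 to 3 in H, and no other count of members. With the triptolide numbers of B crossed, chosen after seeing the data, the counts stayed at 10 lower for triptolide and 10 higher for cycloheximide over triptolide.

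Over all genes, leaving out the filter gave 1297 genes higher for cycloheximide over DMSO (610 in the report's fit, 378 by DESeq2), 1571 higher in G (940), 1289 higher for cycloheximide in H (775), 113 higher for triple over double MO (71, 36 by DESeq2), 16 lower for sox3 MO in C (5, 0 fitted alone, 1 by DESeq2) and 5 higher for DMSO (3, 0 fitted alone). Fitted alone, pou5f3.3 MO in C lowered 107 (185), both MOs 324 (599), D minus C 335 (588) and triptolide B minus A 18 (104, 226 with the legacy fit, 214 by DESeq2). Other scalings moved the median of all genes by 0.262 and 0.236 for stage 10.5 over 9, 0.116 and 0.159 for stage 9 over 5, and by up to -0.191 for triptolide.

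Depth limits the GATA genes: at stage 9 none had more than 78 exon reads in a library, and several folds rest on 0 to 3 reads in a group.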
